A study of Arabidopsis thaliana with 8 samples.

Results

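The comparison sets Arabidopsis thaliana seedlings of a MIR394A overexpression line (MIR394A_OE, 2 libraries) against wild-type Col-0 seedlings (3 libraries), which are 5 of the 8 RNA-seq libraries of the series. Genes were kept where the mean over these 5 libraries was at least 1 FPKM (fragments of a transcript scaled to its length and to the mapped fragments of the library), which left 18702 of the 22951 genes in the deposited table. All plants were whole seedlings, 5 days old, in the Col-0 background and grown in long days of light. The other 3 libraries come from bin2-1, a mutant allele of the kinase BIN2, and were used here for the spread between replicates and, where stated, for its values. The labels give neither the promoter that drives MIR394A nor the number of transgenic lines, and nothing says that replicates came from separate sowings. The p-values therefore measure the spread between these libraries, which may be technical.

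MicroRNA miR394 is a short RNA that guides an Argonaute protein to messenger RNAs carrying a nearly complementary site. Its known target is LCR (LEAF CURLING RESPONSIVENESS), an F-box gene, and F-box proteins select other proteins for degradation; major latex proteins (MLP) are described as substrates of LCR. The series asks how miR394 and its target act on brassinosteroid signalling and on elongation of the hypocotyl, the seedling stem. Brassinosteroids are steroid hormones that lead the kinase BIN2 to be switched off and the transcription factors BZR1 and BES1 to accumulate, and they promote cell elongation together with auxin and gibberellin.

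The sequences that link the overexpressed gene to its target are shown first, read from the RefSeq TAIR10.1 genome and written in DNA letters. MIR394a lies at chr1:7058194-7058310 on the plus strand, and its mature form at chr1:7058207-7058226, with the seed (bases 2 to 8) in capitals. The mature sequence of MIR394b, at chr1:28568821-28568840 on the plus strand, is identical. In the hairpin the capitals mark the mature miRNA.
ath-miR394a: tTGGCATTctgtccacctcc
MIR394a hairpin: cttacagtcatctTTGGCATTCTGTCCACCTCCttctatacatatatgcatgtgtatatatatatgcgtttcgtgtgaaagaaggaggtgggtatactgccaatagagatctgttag
The transcripts of 18614 tested genes were searched, without gaps, for sites complementary to this sequence. A mismatch scored 1 and a G:U pair 0.5, and both were doubled at miRNA positions 2 to 13, so that a lower score means closer pairing. Only 2 genes had a score of 4 or less. The capitals below mark Watson-Crick pairs with the miRNA, and lower case marks mismatches and G:U pairs.
LCR site: GGAGGTtGACAGAATGCCAA
AT4G20430 site: GcAGGTGGACAaAATGCtAA
The LCR site, at chr1:9497605-9497624 on the plus strand, is coding sequence of exon 2 (of 2) and scored 1.0. The AT4G20430 site, at chr4:11018687-11018706 on the minus strand, is coding sequence of exon 8 (of 11) and scored 4.0.

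The 2 MIR394A_OE libraries differed from each other more than either did from its nearest Col-0 library. They correlated at r = 0.952 across genes, which are not independent replicates, and 1381 genes (7.38%) were more than 2-fold apart between them. MIR394A_OE replicate 2 and Col-0 replicate 2 had 305 such genes, and MIR394A_OE replicate 1 and Col-0 replicate 1 had 577. Col-0 libraries also differed among themselves. Replicates 1 and 3 of Col-0 had 1341 such genes (r = 0.954), close to the MIR394A_OE pair. Replicates 1 and 2 of Col-0 had 698, and replicates 2 and 3 had 416. On the first principal component of the 5 libraries, with 49.5% of the variance, MIR394A_OE replicates 1 and 2 lay at -46.3 and 15.3, and Col-0 replicates 1, 2 and 3 at -23.1, 19 and 35.2. The estimated depth was 11.3 and 10.9 M reads in MIR394A_OE and 9.68 to 11 M reads in Col-0.

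The difference of MIR394A_OE replicate 1 from Col-0 ran with transcript length, known for 18421 tested genes. Its median difference from the Col-0 mean was 0.43 on the log2 scale for 2939 transcripts under 1000 nt and -0.71 for 568 transcripts of 4000 nt or more. MIR394A_OE replicate 2 ran from -0.02 to 0.25 over the same classes, and no Col-0 library moved by more than 0.23 from the other Col-0 libraries in any class.

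**Figure D1:**
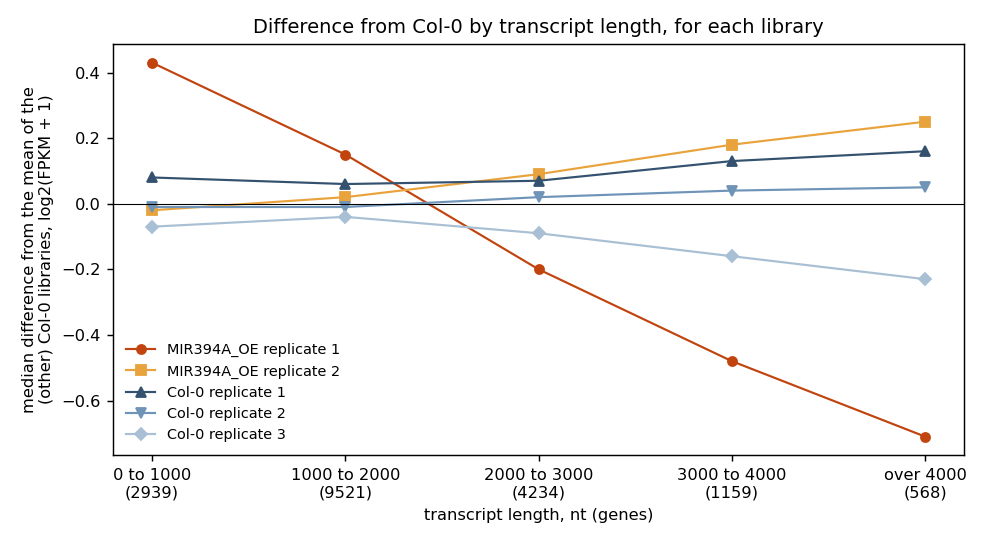
Median difference in log2(FPKM + 1) of each library from the mean of the Col-0 libraries (for a Col-0 library, of the other 2), by transcript length class, with the number of genes in each class under the axis. MIR394A_OE replicate 1 runs from 0.43 for the shortest to -0.71 for the longest transcripts, while the other 4 libraries stay between -0.23 and 0.25.

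LCR was read first, since it bears on the label of the line. MIR394A and MIR394B were not among the genes of the deposited table that matched reference names, so MIR394A itself could not be read. LCR (AT1G27340) was at 17.15 and 17.47 FPKM in MIR394A_OE and at 19.62, 19.62 and 23.86 FPKM in Col-0. Both MIR394A_OE libraries lay below every Col-0 library. The log2 fold change of -0.26 (SE 0.22) had a 95% interval of -0.77 to 0.24, and LCR was not called (limma, adjusted p = 0.872). AT4G20430, the other gene with a site, was at 3.55 and 4.34 FPKM in MIR394A_OE and at 6.06, 4.18 and 3.84 FPKM in Col-0, a log2 fold change of -0.19 (SE 0.24) with overlapping groups. Fold changes here are differences of log2(FPKM + 1), MIR394A_OE minus Col-0, which understate the change of genes with low values.

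Of the 18702 genes, 2 passed an adjusted p of 0.05 in limma (0.0107%), 0 higher (0%) and 2 lower (0.0107%). MRD1 (AT1G53480), named for its lower transcript in a mutant that overaccumulates methionine, fell to 2.23 and 4.93 FPKM in the MIR394A_OE libraries, against 32.18, 33.32 and 41.34 FPKM in the Col-0 libraries. The means lay far apart, at 3.58 ± 1.91 FPKM for MIR394A_OE (SD, n = 2) against 35.6 ± 4.99 FPKM for Col-0 (SD, n = 3). The log2 fold change was -3.06 (SE 0.25, limma, adjusted p = 0.00681). The bin2-1 libraries, at a mean of 42.4 FPKM, lay near Col-0. In whole seedlings, fewer cells of a type and less RNA per cell cannot be told apart.

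HEI10 (AT1G53490), a gene of meiotic crossover formation, shares 1446 bp with MRD1 on the opposite strand. MRD1 spans chr1:19963047-19964712 on the minus strand and HEI10 chr1:19963267-19966952 on the plus strand. HEI10 was at 2.32 and 3.79 FPKM in MIR394A_OE and at 11.61, 13 and 17.06 FPKM in Col-0, again with every MIR394A_OE value below every Col-0 value. Its log2 fold change of -1.88 (SE 0.23) missed the threshold (limma, adjusted p = 0.0817), the lowest among the genes not called. The use of strand in counting is not given in the sources used here, so reads of the overlapping part could be assigned to either gene. The next genes along the chromosome had log2 fold changes of 0.80 (SE 0.32) for AT1G53460, 0.14 (SE 0.19) for MSL4, related to mechanosensitive channels, and -0.06 (SE 0.19) for MUM4, a rhamnose synthase of seed mucilage, each with overlapping groups.

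ABCB19 (AT3G28860), a plasma membrane transporter that moves auxin out of cells, fell to 9.01 and 5.4 FPKM in the MIR394A_OE libraries, against 43.48, 37.73 and 31.29 FPKM in the Col-0 libraries. The means were 7.21 FPKM in MIR394A_OE and 37.5 FPKM in Col-0, and bin2-1 had 34.4 FPKM. The log2 fold change was -2.25 (SE 0.22, limma, adjusted p = 0.0193). ABCB19 lies at chr3:10870005-10877578 on the minus strand. Of its 4 neighbours in the table, 2 on each side, only AT3G28850 reached the filter, at 5.39 and 3.18 FPKM in MIR394A_OE and 4.29, 4.55 and 3.54 FPKM in Col-0 (log2 fold change 0.02, SE 0.23). PRE5, a small growth-promoting bHLH factor, was listed at 0 and 0 FPKM in MIR394A_OE and at 0, 0.14 and 0.25 FPKM in Col-0. The best miR394 sites scored 9.5 in MRD1, 10.5 in ABCB19 and 11 in HEI10, where 19.9% of all genes had a site of 9.5 or less and 47.4% one of 10.5 or less.

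**Figure D2:**
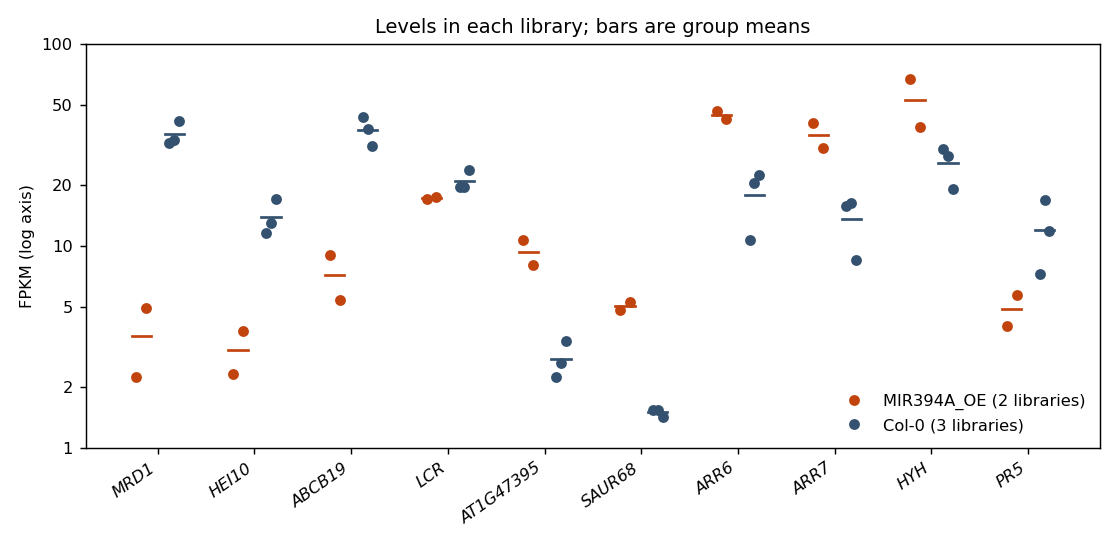
FPKM (log axis) of 10 genes in each MIR394A_OE library (red) and each Col-0 library (blue), with bars at the group means. MRD1, HEI10 and ABCB19 are several-fold lower in both MIR394A_OE libraries, LCR differs little, and the 2 genes that passed the test are MRD1 and ABCB19.

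Both calls depended on how the spread was estimated. A limma fit of MIR394A_OE and Col-0 alone, without bin2-1, gave 0 calls (adjusted p = 0.13 for MRD1 and 0.256 for ABCB19), with 567 genes at an unadjusted p under 0.05. The sign was negative in each of the 19 alternatives tried, with log2 fold changes of -3.49 to -2.62 for MRD1 and -2.58 to -1.93 for ABCB19. MRD1 was called in 16 of the 19 and missed the threshold when Col-0 replicate 3 was left out (limma, adjusted p = 0.0535). ABCB19 was called in 10 of the 19 and missed it when MIR394A_OE replicate 2 was left out (limma, adjusted p = 0.0895), when any single Col-0 library was (0.0535 to 0.158), and when any single bin2-1 library was (0.0583 to 0.0799). Over all genes 895 had an unadjusted p under 0.05 (4.79%), where 935 would be expected by chance. Of these 590 were higher (3.15%) and 305 lower (1.63%).

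ABCB19 has a transcript of 4333 nt and MRD1 of 993 nt. When the trend of each library with transcript length was removed, a choice made after seeing the data, 649 of the 18421 genes were more than 2-fold apart between the MIR394A_OE libraries, against 1346 before. In that fit limma called 0 genes, with 984 at an unadjusted p under 0.05. MRD1 was at -3.23 (SE 0.31, limma, adjusted p = 0.0585) and ABCB19 at -2.06 (SE 0.36, limma, adjusted p = 0.844). Several list medians below are also given from this fit.

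**Figure D3:**
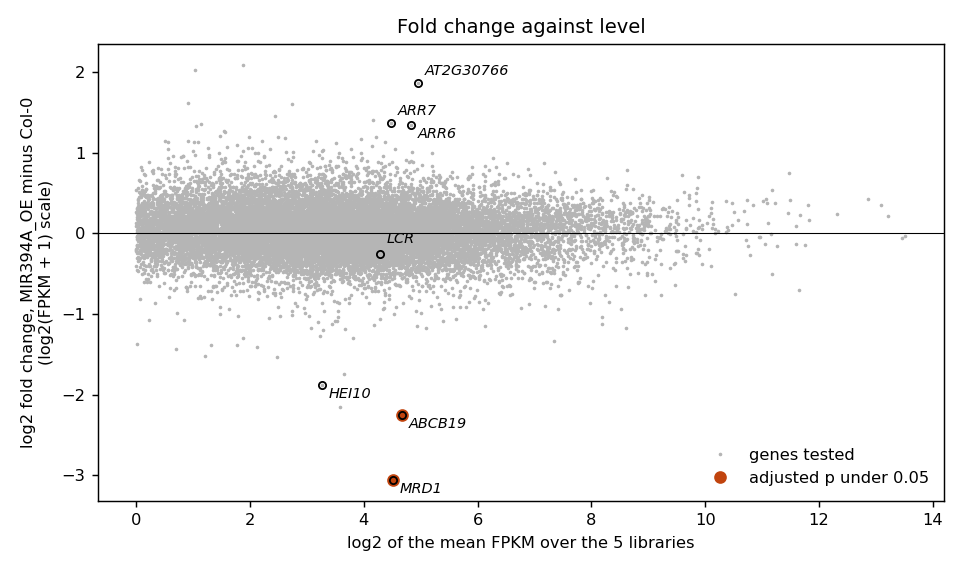
Log2 fold change of MIR394A_OE minus Col-0 against log2 of the mean FPKM over the 5 libraries, with 1 point per tested gene. Red points are the 2 genes with an adjusted p under 0.05, and the cloud centres near 0.04.

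Over all tested genes the median log2 fold change was 0.04, and 90% of genes lay between -0.43 and 0.50. The log2 fold change was 1 or more in size for 90 genes, 47 higher and 43 lower. The groups did not overlap for 3187 genes (17%), with both MIR394A_OE libraries above all Col-0 libraries for 2038 (10.9%) and below them for 1149 (6.14%). The log2 fold change was above 0 for 55.7% of genes. These shares are the background for the gene lists that follow, of which 31 were read, with 357 members. Of the members 352 were in the table, 315 were tested, 37 were under the filter and 5 were not listed; 1 member, ABCB19, was called. Because no other member passed, members are described by their values.

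**Figure D4:**
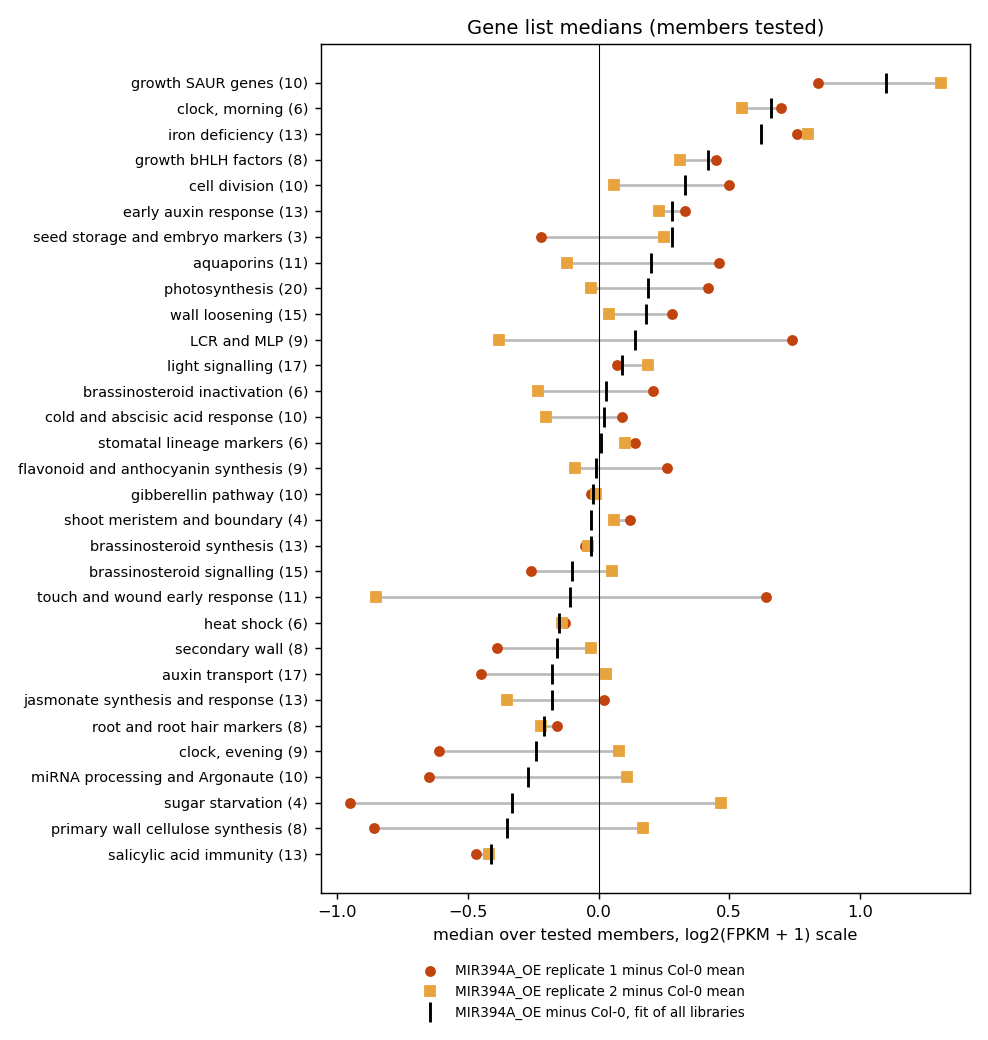
Median over the tested members of each of 31 gene lists (number tested in brackets), on the log2(FPKM + 1) scale. Red circles are MIR394A_OE replicate 1 and orange squares MIR394A_OE replicate 2, each minus the Col-0 mean, and the black bar is the fit over all libraries. SAUR, morning clock and iron deficiency lists lie above 0.5 in both libraries, and touch, sugar starvation and cellulose lists lie on opposite sides of 0.

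SAUR genes are small, rapidly auxin-induced genes, several of which promote cell expansion. Of 18 growth-associated members 10 reached the filter, and 9 of the 10 had a positive log2 fold change, at a median of 1.1. MIR394A_OE replicate 1 gave 0.84 and replicate 2 gave 1.31. For 6 members both MIR394A_OE libraries lay above every Col-0 library, and 0 lay below. SAUR15, 1 of the 6, reached the filter only through MIR394A_OE; the other 9 had a median of 1.06, with 5 above. SAUR68 is the reference symbol of AT1G29510, which the list names SAUR67, and AT1G29490, which the list names SAUR68, was under the filter. SAUR68 (AT1G29510) was at 4.82 and 5.24 FPKM in MIR394A_OE and at 1.54, 1.54 and 1.42 FPKM in Col-0, a log2 fold change of 1.27 (SE 0.26). SAUR20 was at 7.67 and 9.45 FPKM in MIR394A_OE and at 1.14, 4.55 and 5.14 FPKM in Col-0. The groups were apart in both genes, at low levels. AT1G29430 (SAUR62) was at 7.14 and 12.12 FPKM in MIR394A_OE and at 2.41, 3.21 and 5.56 FPKM in Col-0. AT1G29450 (SAUR64) was at 6.53 and 8.28 FPKM in MIR394A_OE and at 2.54, 2.13 and 3.78 FPKM in Col-0. The bin2-1 means were 2.82 FPKM for SAUR68, 8.98 FPKM for SAUR20, 10.5 FPKM for AT1G29430 and 5.33 FPKM for AT1G29450, so that SAUR20 and AT1G29430 were about as high in bin2-1 as in MIR394A_OE. AT1G29420 (SAUR61), in the same cluster, was the exception, at 6.29 and 3.47 FPKM in MIR394A_OE and 5.58, 5.33 and 4.27 FPKM in Col-0. Cluster members are near copies whose reads can be divided among them. The members are short, at a median of 826 nt; with the length trend removed the median was 0.90, with 0.46 for replicate 1 and 1.32 for replicate 2. AT2G21210, a further SAUR gene outside the list (SAUR6), was at 39.19 and 18.79 FPKM in MIR394A_OE and at 13.88, 11.82 and 8.76 FPKM in Col-0.

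Early auxin response genes, mostly Aux/IAA repressors that auxin induces, had a median of 0.28 over 13 tested members. Of these 11 were positive, with 5 above every Col-0 library and 0 below. IAA5, a positive member, reached the filter only through MIR394A_OE. Without it 10 of 12 were positive and 5 lay above, at a median of 0.28. ATAUX2-11 (IAA4) was at 34.44 and 32.58 FPKM in MIR394A_OE and at 26.58, 20.8 and 18.29 FPKM in Col-0 (log2 fold change 0.61, SE 0.23). IAA7 was at 154.17 and 127.58 FPKM in MIR394A_OE and at 118.31, 101.04 and 99.6 FPKM in Col-0 (0.40, SE 0.17). IAA1 was at 8.58 and 13.25 FPKM in MIR394A_OE and at 5.75, 7.81 and 5.83 FPKM in Col-0 (0.66, SE 0.31). In all 3 genes the groups were apart by less than a factor of 2. GH3.3, which conjugates auxin to amino acids, had a negative log2 fold change, at 6.09 and 10.87 FPKM in MIR394A_OE and 3.91, 11.05 and 26.3 FPKM in Col-0, with overlap between groups. The list median was 0.16 with the length trend removed.

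The auxin transport list, which holds ABCB19, had a median of -0.18 over 17 tested members, of which 2 were positive. ABCB19 and LAX1, an auxin uptake carrier, lay below every Col-0 library. LAX1 was at 10.53 and 16.03 FPKM in MIR394A_OE and at 16.15, 17.09 and 17.3 FPKM in Col-0 (-0.35, SE 0.20). ABCB1, the closest relative of ABCB19 in function, was at 11.45 and 20.86 FPKM in MIR394A_OE and at 24.32, 19.07 and 19.66 FPKM in Col-0 (-0.41, SE 0.26). TWD1, an immunophilin needed to bring both ABCB proteins to the membrane, was at 13.15 and 17.07 FPKM in MIR394A_OE and at 15.04, 11.03 and 9.58 FPKM in Col-0 (0.33, SE 0.23). PIN4, an auxin efflux carrier, was at 14.66 and 19.19 FPKM in MIR394A_OE and at 26.09, 17.1 and 22.78 FPKM in Col-0. The groups overlapped in ABCB1, TWD1 and PIN4. The median came from 1 library, at -0.45 for MIR394A_OE replicate 1 and 0.03 for replicate 2. Members have a median transcript length of 2714 nt, and with the length trend removed these values were -0.13 and -0.10.

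Brassinosteroid genes lay near 0. The synthesis list had a median of -0.03 over 13 tested members, 6 positive, with 0 above and 3 below every Col-0 library. DET2, a steroid reductase, was at 8.85 and 7.95 FPKM in MIR394A_OE and at 9.62, 9.49 and 12.17 FPKM in Col-0 (-0.28, SE 0.19). CYP51G1, a sterol demethylase, was at 62.14 and 59.73 FPKM in MIR394A_OE and at 65.54, 67.46 and 77.8 FPKM in Col-0 (-0.20, SE 0.18). Both were slightly below Col-0 without overlap. DWF4, the hydroxylase of the rate-limiting step, was at 8.92 and 5.66 FPKM in MIR394A_OE and at 6.02, 5.65 and 5.69 FPKM in Col-0 (0.26, SE 0.20), so that replicate 1 alone stood out. BR6OX2 (CYP85A2), which makes brassinolide, was at 3.0 and 2.63 FPKM in MIR394A_OE and at 3.08, 1.93 and 2.32 FPKM in Col-0.

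Brassinosteroid inactivation genes had a median of 0.03 over 6 tested members, 3 of them positive. CYP72C1, which lowers brassinosteroid levels, was at 8.44 and 8.09 FPKM in MIR394A_OE and at 5.47, 7.08 and 7.47 FPKM in Col-0 (0.28, SE 0.20), apart from Col-0. AT4G31910 (BAT1), an acyltransferase, had -0.32 (SE 0.25) and BEN1, a reductase-like gene, 0.19 (SE 0.25), both with overlap. The signalling list had a median of -0.10 over 15 tested members, 4 positive. BIN2 was at 64.06 and 105.0 FPKM in MIR394A_OE and at 94.11, 101.63 and 111.22 FPKM in Col-0 (-0.31, SE 0.22). BRI1, the receptor, was at 27.02 and 64.23 FPKM in MIR394A_OE and at 46.3, 63.79 and 51.68 FPKM in Col-0 (-0.35, SE 0.32). In both genes MIR394A_OE replicate 1 was the lowest of the 5 libraries, and replicate 2 lay within or above the Col-0 range. BZR1 was at 17.03 and 24.77 FPKM in MIR394A_OE and at 19.84, 22.68 and 23.37 FPKM in Col-0, and BES1 at 81.59 and 81.96 FPKM in MIR394A_OE and at 95.17, 83.03 and 76.02 FPKM in Col-0. BEH3, a relative of BZR1, had 0.26 (SE 0.19).

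The growth-promoting bHLH factors, which act downstream of brassinosteroids and related signals, and their inhibitor IBH1 were positive in 8 of 8 tested members, at a median of 0.42; 3 of the 11 members were under the filter. HBI1 was the member without overlap, at 12.35 and 13.63 FPKM in MIR394A_OE and at 11.42, 4.85 and 7.57 FPKM in Col-0 (0.71, SE 0.31). BEE3 was at 27.58 and 48.01 FPKM in MIR394A_OE and at 18.3, 30.36 and 28.21 FPKM in Col-0 (0.52, SE 0.38). IBH1 had 0.26 (SE 0.18). BEE3 and IBH1 overlapped Col-0. With the length trend removed the median was 0.25. Gibberellin genes had a median of -0.02 over 10 tested members; GA3OX1, a synthesis enzyme, had -0.31 (SE 0.33), with overlap.

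Among light signalling genes the median was 0.09 over 17 tested members, 10 positive, with 3 above and 1 below every Col-0 library. HYH, a bZIP factor and relative of HY5, was at 66.83 and 38.92 FPKM in MIR394A_OE and at 30.1, 27.73 and 19.02 FPKM in Col-0 (0.99, SE 0.26). HB-2 (ATHB2), a shade-induced homeobox factor, was at 16.26 and 12.23 FPKM in MIR394A_OE and at 9.35, 7.18 and 3.8 FPKM in Col-0 (1.03, SE 0.31). Both genes were apart from Col-0. PIF7, a bHLH factor of shade growth, was at 19.81 and 34.59 FPKM in MIR394A_OE and at 14.3, 21.08 and 15.57 FPKM in Col-0 (0.62, SE 0.31), with overlap. PHYA was at 16.28 and 36.52 FPKM in MIR394A_OE and at 28.5, 30.18 and 31.08 FPKM in Col-0, and PHYB at 8.89 and 15.34 FPKM in MIR394A_OE and at 15.96, 13.69 and 13.48 FPKM in Col-0, so that for these long photoreceptor transcripts replicate 1 was the lowest library.

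The morning clock list was positive in 6 of 6 tested members, at a median of 0.66, with 0.70 for MIR394A_OE replicate 1 and 0.55 for replicate 2. Its genes peak around dawn. LHY was at 39.66 and 40.45 FPKM in MIR394A_OE and at 30.35, 25.65 and 22.74 FPKM in Col-0 (0.60, SE 0.20). CCA1 was at 25.62 and 21.92 FPKM in MIR394A_OE and at 20.06, 14.64 and 9.36 FPKM in Col-0 (0.71, SE 0.27). RVE8 was at 23.49 and 15.92 FPKM in MIR394A_OE and at 16.54, 10.68 and 7.61 FPKM in Col-0 (0.75, SE 0.29). LHY and CCA1 were apart from Col-0 and RVE8 overlapped with 1 Col-0 library. The evening list, with peaks around dusk, had a median of -0.24 over 9 members, 1 positive, from -0.61 in replicate 1 and 0.08 in replicate 2. TOC1 was at 30.5 and 66.54 FPKM in MIR394A_OE and at 60.3, 70.3 and 55.25 FPKM in Col-0 (-0.44, SE 0.29). ZTL, a blue-light F-box protein, was at 11.48 and 17.39 FPKM in MIR394A_OE and at 20.31, 17.23 and 19.44 FPKM in Col-0 (-0.40, SE 0.20). The labels give no hour of harvest for single libraries, and the part of harvest time in these values was not tested.

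Iron deficiency genes, most of which plants induce when iron is short, had a median of 0.62 over 13 tested members. Of these 11 were positive, with 6 above every Col-0 library and 0 below. MIR394A_OE replicate 1 gave 0.76 and replicate 2 gave 0.80. BHLH100, a transcription factor of this response, was at 3.35 and 3.57 FPKM in MIR394A_OE and at 0.75, 1.0 and 1.4 FPKM in Col-0 (1.13, SE 0.22). BHLH101 was at 4.75 and 3.99 FPKM in MIR394A_OE and at 2.41, 1.01 and 2.44 FPKM in Col-0, and bHLH38 at 2.16 and 1.82 FPKM in MIR394A_OE and at 0.4, 0.68 and 0.8 FPKM in Col-0. All 3 were apart from Col-0, at levels of a few FPKM. The Col-0 mean of bHLH38 was 0.627 FPKM, so it reached the filter only through MIR394A_OE and was bound to differ; without it 10 of 12 members were positive and 5 lay above every Col-0 library, at a median of 0.60. AT2G30766 was at 73.51 and 36.01 FPKM in MIR394A_OE and at 22.7, 16.97 and 6.05 FPKM in Col-0 (1.86, SE 0.52). AT1G47395 was at 10.65 and 8.03 FPKM in MIR394A_OE and at 2.24, 2.64 and 3.38 FPKM in Col-0 (1.46, SE 0.25, limma, adjusted p = 0.715). AT1G47400 was at 6.34 and 3.73 FPKM in MIR394A_OE and at 0.86, 1.37 and 2.44 FPKM in Col-0 (1.25, SE 0.35). In bin2-1 the means were 32.3 FPKM for AT2G30766, 10.2 FPKM for AT1G47395 and 6.11 FPKM for AT1G47400. AT1G47395 was called higher in bin2-1 than in Col-0 (1.57, SE 0.22, limma, adjusted p = 0.0466), and MIR394A_OE minus bin2-1 was -0.10 (SE 0.25). These loci, members of the list, were among the 12 largest positive differences by the rule used to name genes. Other members lay near Col-0: FRU (FIT), the root regulator of iron uptake, at 4.29 and 5.04 FPKM in MIR394A_OE and 2.75, 4.62 and 5.72 FPKM in Col-0, and FRO2, the root ferric reductase, at 2.32 and 1.6 FPKM in MIR394A_OE and 2.2, 0.67 and 2.71 FPKM in Col-0. FER1, an iron store and not one of the induced genes, was at 194.52 and 72.16 FPKM in MIR394A_OE and at 187.63, 123.7 and 178.52 FPKM in Col-0 (-0.43, SE 0.36). The list median was 0.46 with the length trend removed (12 members with a length), 0.35 over members of at least 5 FPKM and 0.87 with a pseudocount of 0.1 FPKM.

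**Figure D5:**
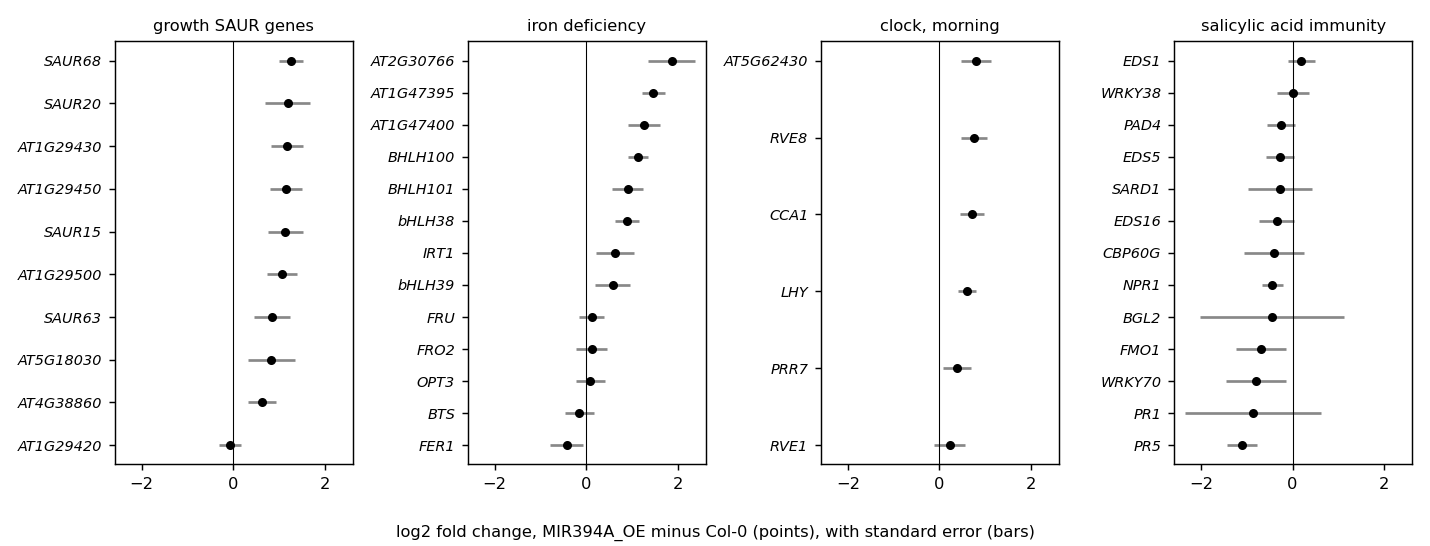
Log2 fold change of MIR394A_OE minus Col-0 with its standard error for the tested members of 4 gene lists. In all, 11 lists had medians that kept their sign under every alternative tried, and these are 4 of them. Of 10 SAUR genes 9 are above 0, of 13 iron deficiency genes 11, of 6 morning clock genes 6 and of 13 salicylic acid genes 2.

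All 10 cell division members had a positive log2 fold change, with a median of 0.33, with 0.50 for MIR394A_OE replicate 1 and 0.06 for replicate 2. SYP111 (KN), the syntaxin of the forming cell plate, was at 38.73 and 31.24 FPKM in MIR394A_OE and at 30.94, 20.9 and 22.05 FPKM in Col-0 (0.50, SE 0.22). CYC1BAT (CYCB1;2), a mitotic cyclin, was at 18.79 and 16.34 FPKM in MIR394A_OE and at 15.43, 13.21 and 11.55 FPKM in Col-0 (0.37, SE 0.18). PCNA2, a sliding clamp of DNA replication, was at 27.32 and 21.61 FPKM in MIR394A_OE and at 18.78, 16.66 and 17.51 FPKM in Col-0 (0.44, SE 0.20). These 3 members had no overlap between groups. In the fit without the length trend the median was 0.22.

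Genes of cellulose synthesis in primary walls were negative in 8 of 8 members, at a median of -0.35, but the MIR394A_OE libraries were on opposite sides, at -0.86 for replicate 1 and 0.17 for replicate 2. CESA1, a catalytic subunit, was at 70.62 and 134.23 FPKM in MIR394A_OE and at 117.06, 132.96 and 156.05 FPKM in Col-0 (-0.46, SE 0.27). CSI1, which links the synthase complex to microtubules, was at 12.9 and 46.56 FPKM in MIR394A_OE and at 30.59, 41.11 and 42.23 FPKM in Col-0 (-0.59, SE 0.44). Transcripts of this list are long, with a median of 4155 nt, 4221 nt for CESA1 and 7205 nt for CSI1. With the length trend removed the list median was -0.22, with -0.41 for replicate 1 and -0.03 for replicate 2. Xylem secondary wall genes had a median of -0.16 over 8 members, 4 of them below every Col-0 library. The median was -0.39 for MIR394A_OE replicate 1 and -0.03 for replicate 2. With the length trend removed it was -0.16, with -0.05 for replicate 1 and -0.08 for replicate 2. IRX12 (LAC4), a laccase of lignin formation, was at 7.4 and 16.39 FPKM in MIR394A_OE and at 16.82, 18.16 and 18.46 FPKM in Col-0 (-0.64, SE 0.28). IRX3 (CESA7) was at 3.61 and 5.57 FPKM in MIR394A_OE and at 5.66, 5.84 and 5.87 FPKM in Col-0 (-0.30, SE 0.21), and IRX1 (CESA8) at 3.1 and 4.26 FPKM in MIR394A_OE and at 4.7, 4.76 and 4.44 FPKM in Col-0 (-0.28, SE 0.19). In each of these genes replicate 2 lay just under the lowest Col-0 library.

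Wall loosening genes had a median of 0.18 over 15 tested members, 12 positive, and of 0.11 with the length trend removed. XTH9, which remodels xyloglucan, was at 160.39 and 158.14 FPKM in MIR394A_OE and at 101.62, 129.6 and 138.67 FPKM in Col-0 (0.38, SE 0.20), without overlap. The expansins EXPA11 (0.34, SE 0.22) and EXPA5 (0.37, SE 0.29) overlapped Col-0. Aquaporins, channels for water, had a median of 0.20 over 11 members, from 0.46 in MIR394A_OE replicate 1 and -0.12 in replicate 2. PIP1B was at 505.59 and 306.05 FPKM in MIR394A_OE and at 359.43, 337.23 and 306.65 FPKM in Col-0 (0.24, SE 0.22). PIP3 was at 519.73 and 403.39 FPKM in MIR394A_OE and at 395.6, 330.04 and 409.58 FPKM in Col-0 (0.28, SE 0.20). The high values were those of replicate 1. With the length trend removed the list median was 0.11, with 0.30 for replicate 1 and -0.15 for replicate 2.

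Nuclear photosynthesis genes had a median of 0.19 over 20 members, 13 positive, with 2 above and 2 below every Col-0 library. CAB2 (LHCB1.1), a light-harvesting protein, was at 5254.98 and 2508.8 FPKM in MIR394A_OE and at 2488.78, 2045.6 and 1994.14 FPKM in Col-0 (0.75, SE 0.31). LHCA4 was at 3780.36 and 2002.63 FPKM in MIR394A_OE and at 2341.74, 1546.9 and 1883.33 FPKM in Col-0 (0.54, SE 0.28). RBCS1B, a Rubisco small subunit, was at 1754.87 and 1961.53 FPKM in MIR394A_OE and at 2550.07, 2772.11 and 2590.23 FPKM in Col-0 (-0.51, SE 0.22), with its groups apart. CAB and RBCS genes have near copies that can share reads. The list median was 0.42 in replicate 1 and -0.03 in replicate 2. With the length trend removed it was 0.05, with 0.22 in replicate 1 and -0.04 in replicate 2. Flavonoid genes had a median of -0.01 over 9 tested members, and of -0.10 with the length trend removed. AT1G56650 reached the filter only through the group where it was higher, and the other 8 members had a median of -0.09. TT4 (chalcone synthase), the entry enzyme, was at 161.14 and 194.69 FPKM in MIR394A_OE and at 196.64, 228.26 and 241.02 FPKM in Col-0 (-0.32, SE 0.17), and TT5 (chalcone isomerase) at 43.99 and 44.23 FPKM in MIR394A_OE and at 61.96, 49.45 and 52.54 FPKM in Col-0 (-0.30, SE 0.18). Both lay below Col-0 without overlap, while LDOX, a later enzyme, had 0.70 (SE 0.36) with overlap.

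Salicylic acid immunity genes had a median of -0.41 over 13 members, 2 positive, with -0.47 for MIR394A_OE replicate 1 and -0.42 for replicate 2. PR5, a secreted defence protein, was at 4.0 and 5.72 FPKM in MIR394A_OE and at 7.28, 16.84 and 11.86 FPKM in Col-0 (-1.10, SE 0.32). NPR1, a receptor of the hormone, was at 12.6 and 19.1 FPKM in MIR394A_OE and at 22.66, 21.85 and 19.99 FPKM in Col-0 (-0.44, SE 0.23). These were the 2 members below every Col-0 library. The Col-0 libraries were themselves uneven: PR1 was at 2.25 and 3.05 FPKM in MIR394A_OE and at 0, 35.95 and 6.7 FPKM in Col-0, and BGL2 (PR2) at 15.5 and 18.52 FPKM in MIR394A_OE and at 1.58, 73.61 and 75.19 FPKM in Col-0. FMO1, of systemic resistance, was at 1.05 and 2.07 FPKM in MIR394A_OE and at 0.71, 5.29 and 5.16 FPKM in Col-0. Leaving out 1 library at a time gave list medians of -0.54 to -0.05, the last without Col-0 replicate 2.

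Jasmonate genes had a median of -0.18 over 13 members, 3 positive, with 3 below every Col-0 library. The median came mainly from 1 library, at 0.02 for MIR394A_OE replicate 1 and -0.35 for replicate 2. With the length trend removed the median was -0.32, with -0.19 for replicate 1 and -0.50 for replicate 2. The 3 members below every Col-0 library were enzymes of jasmonate synthesis. LOX2 was at 63.71 and 71.28 FPKM in MIR394A_OE and at 100.08, 91.89 and 161.82 FPKM in Col-0 (-0.75, SE 0.23). AOS was at 79.23 and 70.0 FPKM in MIR394A_OE and at 111.9, 85.53 and 136.73 FPKM in Col-0 (-0.55, SE 0.26). LOX3 was at 20.57 and 24.94 FPKM in MIR394A_OE and at 35.14, 33.66 and 27.29 FPKM in Col-0 (-0.47, SE 0.31). The repressor JAZ1, a fast jasmonate-induced gene, was at 152.96 and 176.13 FPKM in MIR394A_OE and at 148.36, 194.4 and 94.38 FPKM in Col-0. CORI3, a coronatine-induced gene outside the list, was at 4.8 and 4.94 FPKM in MIR394A_OE and at 11.29, 9.53 and 18.08 FPKM in Col-0 (-1.20, SE 0.35), among the 12 largest negative differences, as was the defensin PDF1.3 at 0.94 and 1.67 FPKM in MIR394A_OE and 3.22, 2.92 and 9.66 FPKM in Col-0 (-1.30, SE 0.40).

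Touch and wound genes, which plants switch on within minutes of handling, split the libraries of each group. Their median was -0.11 over 11 members, from 0.64 in MIR394A_OE replicate 1 and -0.85 in replicate 2, and 10 of the 11 were more than 2-fold apart between these libraries, against 7.38% of all genes. ERF104 was at 155.05 and 25.95 FPKM in MIR394A_OE and at 421.31, 66.26 and 60.96 FPKM in Col-0 (-0.90, SE 0.90). STZ (ZAT10) was at 111.05 and 26.92 FPKM in MIR394A_OE and at 223.84, 69.55 and 41.76 FPKM in Col-0 (-0.65, SE 0.72), and TCH2, a calmodulin-like gene, at 555.41 and 269.29 FPKM in MIR394A_OE and at 367.17, 336.03 and 163.0 FPKM in Col-0 (0.51, SE 0.45). MIR394A_OE replicate 1 and Col-0 replicate 1 were thus the higher libraries of their groups in each of the 3. CBF2, a cold-response factor, had the same pattern, at 38.42 and 5.01 FPKM in MIR394A_OE and 48.1, 3.79 and 2.62 FPKM in Col-0, as did AT1G72910, at 32.02 and 1.12 FPKM in MIR394A_OE and 65.44, 5.2 and 0.99 FPKM in Col-0. CNI1, a ubiquitin ligase gene, was at 33.07 and 4.74 FPKM in MIR394A_OE and at 46.7, 12.09 and 6.97 FPKM in Col-0, and AT5G54490 (PBP1), a calcium-binding protein gene, at 65.13 and 9.53 FPKM in MIR394A_OE and at 73.56, 36.36 and 8.78 FPKM in Col-0. AT1G72920 was at 37.58 and 5.12 FPKM in MIR394A_OE and at 68.53, 15.1 and 2.27 FPKM in Col-0. These genes were named because they were the farthest apart between the MIR394A_OE libraries, together with AT2G47880, whose Col-0 libraries were closer, at 9.66 and 0.45 FPKM in MIR394A_OE and 3.79, 2.67 and 5.47 FPKM in Col-0. With the length trend removed the list median was -0.22, with 0.48 for MIR394A_OE replicate 1 and -0.86 for replicate 2. The part of handling in the differences between groups was not tested.

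Sugar starvation genes also split the libraries, at a median of -0.33 over 4 tested members, from -0.95 in MIR394A_OE replicate 1 and 0.47 in replicate 2. ASN1 (DIN6), an asparagine synthetase of carbon shortage, was at 11.66 and 61.7 FPKM in MIR394A_OE and at 18.28, 60.19 and 63.14 FPKM in Col-0. DIN10 was at 210.95 and 676.98 FPKM in MIR394A_OE and at 282.34, 630.6 and 670.2 FPKM in Col-0, and DYL1 (DRM1), a dormancy-associated gene, at 211.78 and 265.25 FPKM in MIR394A_OE and at 208.39, 286.62 and 400.69 FPKM in Col-0. The first replicate of each group was the lowest of its group in all 3 genes. ASN1 was among the genes farthest apart between the MIR394A_OE libraries with replicate 2 the higher, as were AT5G14920 (GASA14), of the gibberellin-regulated family, at 29.94 and 156.89 FPKM in MIR394A_OE and 74.61, 205.31 and 344.79 FPKM in Col-0, and AT4G22505, at 12.52 and 76.69 FPKM in MIR394A_OE and 38.24, 72.89 and 78.42 FPKM in Col-0. The pattern was shared by AT4G22485, at 8.25 and 42.27 FPKM in MIR394A_OE and 24.62, 46.35 and 36.02 FPKM in Col-0, and by AT2G36854, at 1.15 and 20.7 FPKM in MIR394A_OE and 6.98, 16.6 and 12.37 FPKM in Col-0. Cold and abscisic acid genes had a median of 0.02 over 10 tested members. AT5G66400 (RAB18) was at 7.99 and 10.36 FPKM in MIR394A_OE and at 12.5, 18.96 and 11.18 FPKM in Col-0 (-0.56, SE 0.31), without overlap, while ABI1 (-0.30, SE 0.22) and COR47 (0.31, SE 0.24) overlapped. Heat shock genes had a median of -0.15 over 6 tested members, with HSP90.1 at -0.25 (SE 0.17), HSP70 at -0.18 (SE 0.19) and HSP17.6II at 0.45 (SE 0.31).

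The machinery of miRNAs had a median of -0.27 over 10 members, 2 positive, from -0.65 in MIR394A_OE replicate 1 and 0.11 in replicate 2. AGO1, the Argonaute that carries most miRNAs, was at 36.18 and 77.62 FPKM in MIR394A_OE and at 69.39, 69.69 and 68.4 FPKM in Col-0 (-0.38, SE 0.27). DCL1, which cuts miRNA precursors, was at 2.85 and 8.84 FPKM in MIR394A_OE and at 5.39, 6.09 and 4.64 FPKM in Col-0 (-0.04, SE 0.37). In both the MIR394A_OE libraries lay on either side of Col-0. HYL1, the double-stranded RNA binding partner of DCL1, was at 17.51 and 17.08 FPKM in MIR394A_OE and at 15.68, 13.47 and 11.57 FPKM in Col-0 (0.34, SE 0.18), and AGO2 at 2.47 and 3.55 FPKM in MIR394A_OE and at 4.73, 4.42 and 4.71 FPKM in Col-0 (-0.50, SE 0.19), each apart from Col-0. The list has a median length of 3386 nt; with the length trend removed replicate 1 gave -0.05 and replicate 2 gave -0.08.

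MLP genes, whose proteins are described as substrates of LCR, form a list with LCR that had a median of 0.14 over 9 tested members, 7 positive, from 0.74 in MIR394A_OE replicate 1 and -0.38 in replicate 2. MLP165 was at 29.49 and 23.36 FPKM in MIR394A_OE and at 19.63, 15.77 and 16.16 FPKM in Col-0 (0.59, SE 0.18), and MLP329 at 248.94 and 175.78 FPKM in MIR394A_OE and at 154.84, 158.89 and 157.02 FPKM in Col-0 (0.41, SE 0.20). Both were apart from Col-0. MLP28 was at 226.51 and 88.4 FPKM in MIR394A_OE and at 161.88, 93.46 and 100.37 FPKM in Col-0, and MLP43 at 221.95 and 90.5 FPKM in MIR394A_OE and at 187.61, 114.98 and 107.07 FPKM in Col-0, with replicate 1 the highest library. These transcripts are short, at a median of 998 nt. With the length trend removed the list median was -0.05, with 0.32 for replicate 1 and -0.39 for replicate 2, still on opposite sides.

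Markers of cell types and organs were read last. Stomatal lineage markers had a median of 0.01 over 6 tested members. BASL, a polarity protein of that lineage, was at 1.81 and 1.54 FPKM in MIR394A_OE and at 0.96, 0.64 and 0.65 FPKM in Col-0 (0.62, SE 0.20), but reached the filter only through MIR394A_OE, and the other 5 members had a median of -0.07. SPCH, which starts the lineage, was at 3.16 and 6.68 FPKM in MIR394A_OE and at 7.64, 6.38 and 7.66 FPKM in Col-0, with overlap, and EPF2 had 0.28 (SE 0.28). Root and root hair markers had a median of -0.21 over 8 members, 5 negative, and their summed level was 68.7 and 79.7 FPKM in MIR394A_OE, against 82.7, 120 and 137 FPKM in Col-0. Most of the difference in this sum came from PRP3, a root hair wall protein. PRP3 was at 27.49 and 36.8 FPKM in MIR394A_OE and at 38.92, 70.5 and 83.55 FPKM in Col-0 (-0.92, SE 0.31). LRX1, a wall protein of root hairs, had -0.79 (SE 0.38) with overlap, SHV2 (COBL9) was at 4.39 and 5.48 FPKM in MIR394A_OE and at 7.36, 6.01 and 5.92 FPKM in Col-0, and the log2 fold changes of the regulators were 0.07 (SE 0.32) for RHD6 and 0.25 (SE 0.26) for RSL4. The part of root share in other results was not tested. Shoot meristem genes had a median of -0.03 over 4 tested members of 10, with CLV1 at -0.46 (SE 0.24) and KNAT1 at 0.35 (SE 0.22). Seed storage genes had 3 of 8 members above the filter and summed to 6.38 and 10.2 FPKM in MIR394A_OE and 14.3, 17.5 and 3.7 FPKM in Col-0; SESA1 was at 0.39 and 1.06 FPKM in MIR394A_OE and at 1.96, 2.83 and 1.19 FPKM in Col-0, and reached the filter only through Col-0.

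Genes were named by size of difference among 655 with no overlap, an unadjusted p under 0.05 and at least 5 FPKM in the higher group, 437 higher and 218 lower. Besides those above, the 12 largest positive differences included the cytokinin-induced response regulators ARR7, at 40.77 and 30.41 FPKM in MIR394A_OE and 15.68, 16.37 and 8.46 FPKM in Col-0 (1.37, SE 0.39), and ARR6, at 46.69 and 42.44 FPKM in MIR394A_OE and 10.66, 20.55 and 22.36 FPKM in Col-0 (1.34, SE 0.35). The bin2-1 means were 19.3 FPKM for ARR7 and 26.1 FPKM for ARR6. SCI1 was at 15.11 and 11.87 FPKM in MIR394A_OE and at 9.36, 5.03 and 3.46 FPKM in Col-0 (1.14, SE 0.35). AT2G30760, which shares 639 bp with AT2G30766, was at 15.93 and 6.56 FPKM in MIR394A_OE and at 5.02, 5.32 and 0.36 FPKM in Col-0, and its level is uncertain for the reason given for MRD1 and HEI10. Among the 12 largest negative differences, which include MRD1, ABCB19 and HEI10, were 2 genes without a match in the reference: GeneID6240908 at 4.14 and 2.11 FPKM in MIR394A_OE and 27.64, 12.7 and 13.33 FPKM in Col-0 (-2.15, SE 0.88), and GeneID6240465 at 4.23 and 5.08 FPKM in MIR394A_OE and 20.12, 16.8 and 16.72 FPKM in Col-0 (-1.74, SE 0.65). AT4G12490, of the lipid-transfer superfamily, was at 44.21 and 32.09 FPKM in MIR394A_OE and at 50.27, 93.65 and 128.84 FPKM in Col-0 (-1.15, SE 0.35). The other 4 were annotated as proline-rich extensin-like: AT4G08400 (-1.41, SE 0.38), AT3G28550 (-1.18, SE 0.41), AT3G54580 (-1.15, SE 0.43) and EXT10 (-1.13, SE 0.40). None of these genes passed the test over all genes except MRD1 and ABCB19.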

How the data were processed

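RNA was measured in whole seedlings of MIR394A_OE, bin2-1 and Col-0, and the authors deposited 1 table of FPKM values with 2 decimals, per the file headers and the labels. Per the submitters' processing notes the tools include Bowtie2 and HISAT, with no role or version. The genome build is not given in the sources used here, nor is strand. Of the genes, 22798 matched TAIR10.1 names and 153 did not. Depth was estimated from the smallest FPKM steps of 1646 genes, where 85.3% to 90% of values of up to 5 reads came out whole within 0.1 read (20% by chance); 3 reads on 1 kb are worth 0.266 to 0.31 FPKM, for counting error only.

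FPKM is not a count, so log2(FPKM + 1) was tested with limma 3.58.1 in R 4.3.3 (lmFit, then eBayes with trend and robust). The fit held all 8 libraries and estimated each group's mean. Genes under a mean of 1 FPKM in the 5 libraries compared were left out, and two-sided p-values were adjusted by Benjamini-Hochberg over all 18702 genes, with a threshold of 0.05. No overlap means that both MIR394A_OE libraries lay above, or below, all 3 Col-0 libraries. The genes, gene lists and tests were chosen with earlier results of these data known. Named genes are LCR, called genes and their neighbours, the 12 largest differences each way as described, up to 3 members of each list by smallest p and genes far apart between the MIR394A_OE libraries; 10 of these list members and 1 gene without a name are not described. Further members, including those at Col-0 level, were named after their values were seen. The fit was checked on simulated data with independent noise in each gene and library. That check did not cover trends shared by the genes of a library, such as the one with transcript length. Alternatives covered pseudocount, filter, scaling, groups in the fit, eBayes settings, replicate block and leaving out each library; removing the length trend (lowess, span 0.3, on log2 transcript length from TAIR10.1) and leaving out 2 libraries together were chosen after seeing the data.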

Additional observations from a re-analysis of the deposited data

How the results depend on the processing

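The 2 calls, both lower, became 0 with MIR394A_OE and Col-0 alone in the fit (567 at an unadjusted p under 0.05) and 0 with the length trend removed (984); leaving out 1 library at a time gave 0 to 2, with 0 (516) without Col-0 replicate 3. Other settings kept 2, and 0 genes were called higher in any. Genes over 2-fold apart between the MIR394A_OE libraries numbered 1381; over the 18421 genes with a length they numbered 649 with the trend removed and 1346 before. The replicate block gave 2 calls (809 at an unadjusted p under 0.05). The numbers were not taken to pair the samples, since not every pair of deviations correlated over 0.1. Deviations correlated at 0.361 and 0.268 between MIR394A_OE and Col-0, both over 0.1. They correlated at 0.323 and 0.031 between MIR394A_OE and bin2-1, and at 0.0854, -0.201 and -0.109 between bin2-1 and Col-0. Deviations of the 2 MIR394A_OE libraries from their mean are equal and opposite, so the values that involve them are not independent.

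Of 2200 recomputed values of 117 genes given with a fold change or sign, 2142 kept direction and side of the threshold, 12 lost the call and 46 changed sign; genes named for their spread between the MIR394A_OE libraries were not recomputed. AT3G28850 turned to -0.03 under median of ratios scaling and -0.02 under quantile normalization, RHD6 to -0.04 under the replicate block, and with the length trend removed MUM4 to 0.00, RHD6 to -0.02 and DCL1 to 0.23. Without MIR394A_OE replicate 1 and Col-0 replicate 1 together, log2 fold changes were 0.05 for MUM4, -0.26 for AT3G28850, -0.00 for DWF4, 0.09 for TOC1, 0.16 for CSI1, -0.07 for PIP1B, 0.00 for ASN1, 0.06 for DIN10, 0.10 for ABCB1, 0.17 for AGO1, 0.09 for AT4G20430, 0.16 for BRI1 and 0.64 for DCL1, and list medians 0.20 for miRNA machinery, 0.33 for light signalling, -0.13 for aquaporins and 0.01 for photosynthesis. The iron median was 0.87 with a pseudocount of 0.1 FPKM and 0.35 for a mean of at least 5 FPKM.

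Leaving out 1 library at a time, ranges among these 117 genes crossed 0 for AGO1 (-0.92 to 0.16), AT1G29420 (-0.43 to 0.27), BRI1 (-0.96 to 0.26), DCL1 (-0.72 to 0.63), FER1 (-1.14 to 0.27), GH3.3 (-0.98 to 0.25), RHD6 (-0.28 to 0.41), ASN1 (-1.74 to 0.57), AT3G28850 (-0.29 to 0.32), BIN2 (-0.66 to 0.04), CSI1 (-1.47 to 0.30), DIN10 (-1.22 to 0.46), DWF4 (-0.03 to 0.55), ERF104 (-2.16 to 0.37), MUM4 (-0.19 to 0.06), PIP1B (-0.12 to 0.60), STZ (-1.65 to 0.35), TCH2 (-0.01 to 1.03) and TOC1 (-0.99 to 0.11); they were -0.81 to -0.00 for ABCB1 and -0.30 to -0.02 for AT4G20430. List medians ran from -0.12 to 0.46 for aquaporins, -0.45 to 0.03 for auxin transport, 0.06 to 0.50 for cell division, -0.61 to 0.08 for the evening clock, -0.10 to 0.26 for flavonoids, 0.62 to 0.87 for iron, -0.05 to 0.34 for light signalling, -0.03 to 0.42 for photosynthesis, -0.86 to 0.17 for cellulose, -0.65 to 0.11 for miRNA machinery, -0.39 to -0.03 for the secondary wall and -0.95 to 0.47 for sugar starvation. In all 19 settings 11 of 31 list medians kept their sign. The cause of these shifts was not tested. Values near 0.31 FPKM rest on about 3 reads on 1 kb.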

Other observations

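Families outside the lists were looked at because members stood among the largest differences, so they were chosen after their values were seen and carry no test. Type-A response regulators are induced by cytokinin and dampen its signalling. Of 10 tested, 8 had a positive log2 fold change, at a median of 0.58, with 0.68 in MIR394A_OE replicate 1 and 0.54 in replicate 2; 5 lay above every Col-0 library, where 10.9% of all genes did, 0 lay below, and 0 were called. ARR15, 1 of the 5, reached the filter only through MIR394A_OE, and without it 7 of 9 were positive and 4 lay above. Of these 4, ARR6 and ARR7 were among the largest differences that led to the family being looked at. ARR9 was at 35.5 and 22.61 FPKM in MIR394A_OE and at 17.88, 11.83 and 13.1 FPKM in Col-0 (0.96, SE 0.26). RR3 was at 6.39 and 6.32 FPKM in MIR394A_OE and at 5.01, 3.0 and 3.64 FPKM in Col-0, while ARR3 was at 3.3 and 1.13 FPKM in MIR394A_OE and at 4.37, 1.66 and 1.04 FPKM in Col-0, with overlap.

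Genes annotated as proline-rich extensin-like, structural proteins of the cell wall, had 9 tested members of 13, and 0 of the 9 were positive. Their log2 fold changes ran from -1.41 to -0.87, at a median of -1.15, with -1.65 in MIR394A_OE replicate 1 and -0.62 in replicate 2. Below every Col-0 library lay 4 members, where 6.14% of all genes did, and 0 were called. These 4 were the genes that led to the family being looked at, so their count was fixed by that choice. The other tested members overlapped Col-0. EXT12 was at 4.02 and 9.67 FPKM in MIR394A_OE and at 9.43, 21.28 and 18.84 FPKM in Col-0. AT2G43150 was at 93.76 and 271.66 FPKM in MIR394A_OE and at 239.7, 276.58 and 375.6 FPKM in Col-0. These genes hold repeats and are near copies, and reads can be divided among them. The summed root and root hair markers were 68.7 and 79.7 FPKM in MIR394A_OE, against 82.7, 120 and 137 FPKM in Col-0. Most of that difference came from PRP3, and the part of root share in the extensin values was not tested.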
